A study of Mus musculus with 20 samples.

Results

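The 9 genes described here encode the enzymes that turn cholesterol into conjugated bile acids in the liver: Cyp7a1, Cyp8b1, Cyp27a1, Cyp7b1, Hsd3b7, Akr1d1, Amacr, Slc27a5 and Baat. They were taken by symbol from the deposited count tables, which hold 50559 genes, and all 9 passed the filter on low counts (at least 1 CPM, the read count scaled by library size, in at least 5 libraries). Expression was compared across 4 groups of 5 libraries: tumors driven by Aldafermin and MYC, tumors driven by FGF19 and MYC, tumors driven by MYC with a guide against Trp53, and livers without tumors.

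All groups were female C57BL/6J mice, labelled wild type, whose hepatocytes were transfected in vivo as young adults by hydrodynamic injection into the tail vein. Tumors of the Aldafermin+MYC and FGF19+MYC groups arose after transfer of a MYC plasmid (EF1a promoter) with a plasmid for human FGF19 or for Aldafermin, both integrated by the Sleeping Beauty transposase. In sgTrp53+MYC mice the MYC plasmid was combined with a Cas9 and guide plasmid against Trp53 and no FGF19 was given. The livers carry the label non treated, while the methods describe control livers as transfected with a red fluorescent protein plasmid. Each tumor came from a different mouse, the tissue was sequenced in bulk, and the liver around the tumors is not analysed here.

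Bile acids are made from cholesterol along a classic route that starts with Cyp7a1 and an alternative route that starts with Cyp27a1 and continues through Cyp7b1. FGF19 is the human form of a gut hormone that is released when bile acids reach the ileum and that signals to hepatocytes through FGFR4 with its co-receptor beta-klotho, and Cyp7a1 is the gene best known to be repressed by it. Aldafermin is an analog of FGF19 changed at the N-terminus, made to keep this metabolic action without the effect on cell growth. The study asked whether the analog cooperates with MYC as the hormone does, and the comparison with sgTrp53+MYC tumors sets both against MYC-driven tumors that received neither.

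The libraries held 18004977 to 66354724 reads on genes, and the deepest were those of the sgTrp53+MYC group (54042455 to 66354724). The sgTrp53+MYC libraries stand alone in a second table, so that table and group cannot be told apart. In the deposited summary lines, these libraries had 5.34% to 6.82% of reads not aligned and 11.1% to 14.6% ambiguous between genes, against 15.3% to 34.04% and 3.03% to 6.30% in the other 15, and the part of this in the comparisons with sgTrp53+MYC tumors was not tested. Trp53 itself had 18.7 to 79.9 CPM in sgTrp53+MYC tumors, below the 90.8 to 176 CPM of the other tumors, while livers had 28.8 to 36.4 CPM. Summed CPM of 10 hepatocyte markers such as Alb was 195400 to 258400 in livers, 10670 to 34220 in tumors with Aldafermin or FGF19 and 5209 to 14070 in sgTrp53+MYC tumors. Alb had the highest mean of the 10 in each group. It was 161500 CPM in livers, 7227 with Aldafermin, 8098 with FGF19 and 2444 with the Trp53 guide. Summed CPM of 6 tumor and proliferation markers (Afp, Gpc3, H19, Igf2, Mki67 and Top2a) was 6.67 to 69.6 in livers and 15090 to 33000 in tumors. Most of the sum in tumors was H19, with means of 16490 CPM with Aldafermin, 16040 with FGF19 and 12070 with the Trp53 guide. Mean Afp was 3295, 2774 and 555 CPM in the same groups. In bulk tissue, fewer cells that express a gene and less of its RNA per cell cannot be told apart. Among the tumors, Aldafermin+MYC replicate 4 and FGF19+MYC replicate 5 stood apart, with the highest summed hepatocyte markers (26430 and 34220 CPM, against 10670 to 19610 in the other 8). Pericentral markers such as Cyp2e1 were also highest there (1540 and 2183 CPM, against 239.5 to 563 in the other 8). Summed periportal markers were highest in FGF19+MYC replicate 5 (1661 CPM), while Aldafermin+MYC replicate 4 (995.5 CPM) was below replicate 5 of its group (1405 CPM). The differences that rest on Aldafermin+MYC replicate 4 and FGF19+MYC replicate 5 are given with and without them.

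Against livers, the bile acid synthesis genes were lower in all tumor groups. In edgeR's quasi-likelihood test (Benjamini-Hochberg adjustment over 14333 genes, threshold 0.05), 9 of 9 were lower in Aldafermin+MYC tumors, where 31.9% of all genes tested were lower and 38.4% higher (70.3% in all). In FGF19+MYC tumors 9 of 9 were lower, where 32.9% of all genes were lower and 36.9% higher (69.7% in all). In sgTrp53+MYC tumors 8 of 9 were lower, where 33% of all genes were lower and 36.9% higher (69.9% in all), and Cyp7a1 was the one that did not pass. On the log2 scale the medians over the 9 genes were -4.81, -4.71 and -3.08, beside 0.13, 0.06 and 0.07 over all genes. For all 9 genes, every tumor of each group lay below every liver, a separation that 27.5%, 30.1% and 27.4% of all genes tested showed in that direction.

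**Figure D1:**
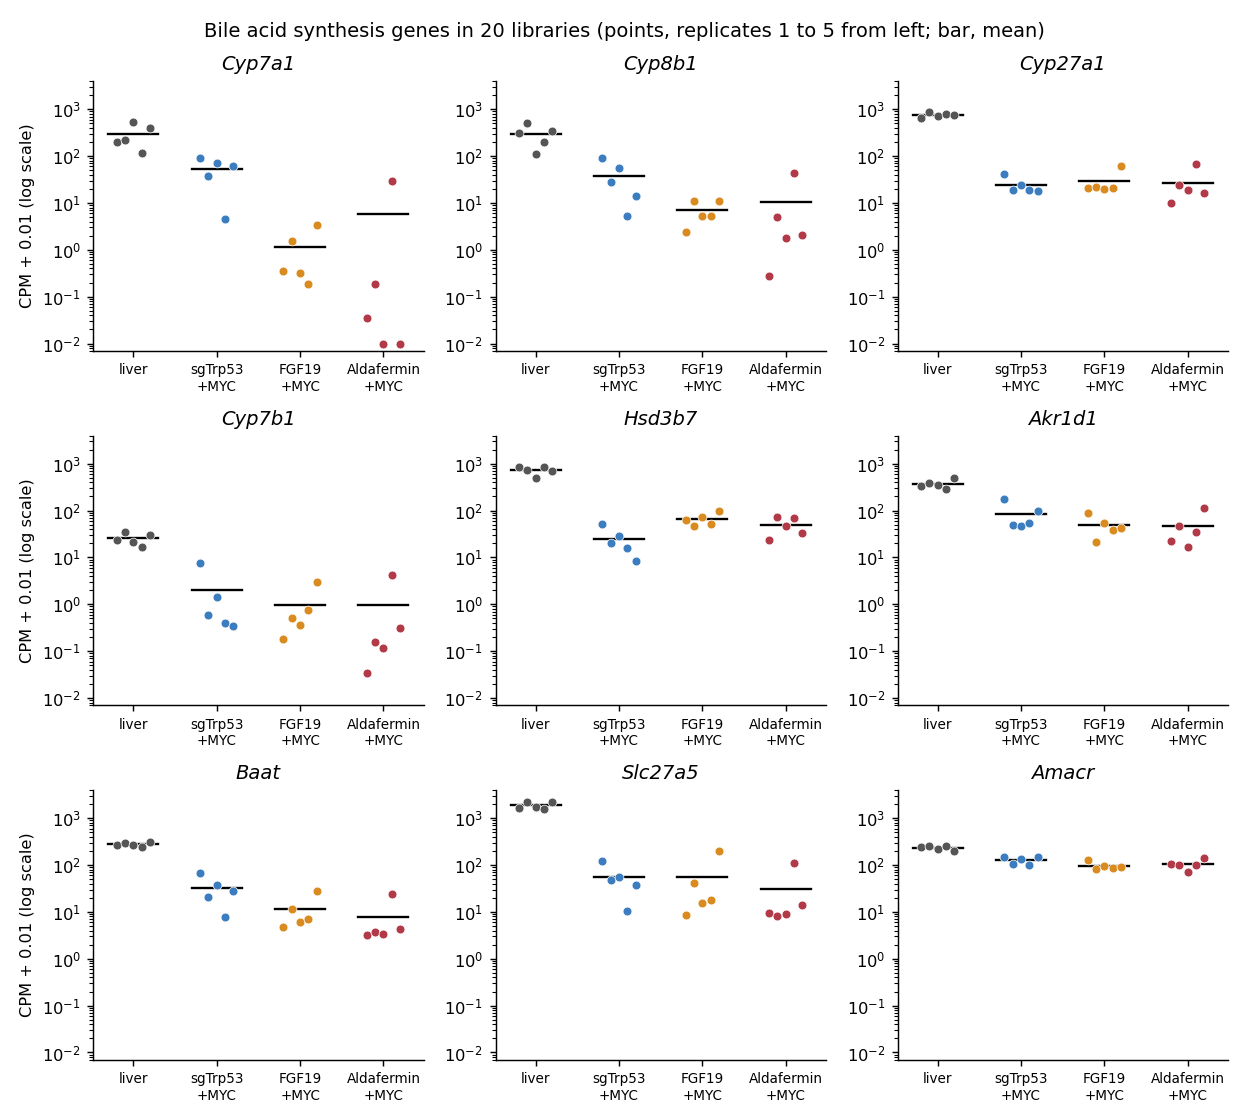
CPM of the 9 genes in 20 libraries (log axis, 0.01 added so that libraries at 0 can be drawn), by group, with points for replicates 1 to 5 from left to right and a bar for the mean. Livers are above all tumors for each gene, and Cyp7a1 spreads most, from 0 CPM in 2 Aldafermin+MYC tumors to 534 CPM in liver replicate 3.

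Cyp7a1 (GRCm39, chr4:6265612-6275633, minus strand) encodes the cholesterol hydroxylase that sets the pace of the classic route. Its level in livers 1 to 5 was 199, 218, 534, 117 and 397 CPM (mean 293 ± 169, SD, n = 5). In sgTrp53+MYC tumors it was 92.6, 37.3, 72.8, 4.53 and 61.3 CPM (53.7 ± 34, SD, n = 5). Thus 4 of these 5 tumors held 12.7% to 31.6% of the liver mean, and replicate 4 held 1.55%. In FGF19+MYC tumors the levels were 0.335, 1.53, 0.314, 0.176 and 3.30 CPM (1.13 ± 1.33, SD, n = 5), at most 1.13% of the liver mean. In Aldafermin+MYC tumors they were 0.0243, 0.174, 0, 28.8 and 0 CPM (5.80 ± 12.9, SD, n = 5), from 1, 7, 0, 749 and 0 reads. Replicate 4 carried nearly all of this group's Cyp7a1, at 9.83% of the liver mean. In replicates 3 and 5 a count of 0 allows up to 0.0800 and 0.0842 CPM (3 reads, counting error only).

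Relative to livers, Cyp7a1 was 253-fold lower in FGF19+MYC tumors (log2 fold change -7.98, SE 1.70, adjusted p = 0.000355, edgeR's quasi-likelihood test). Only 9 of the 14333 genes tested had a more negative estimate in that comparison. In Aldafermin+MYC tumors Cyp7a1 was 51.5-fold lower (-5.69, SE 1.51, adjusted p = 0.00243), with 176 genes at a more negative estimate. In sgTrp53+MYC tumors the estimate was -2.45 (SE 1.29, 95% interval -5.15 to 0.25, adjusted p = 0.0981), and 1338 genes had a more negative one. When only sgTrp53+MYC tumors and livers entered the model, that difference was -2.31 and passed the threshold (adjusted p = 0.00739). In order of mean level the groups ran from liver through sgTrp53+MYC and Aldafermin+MYC to FGF19+MYC tumors. Neither the first nor the last neighbours in this order passed the threshold in the model of 4 groups. The first neighbours did not overlap, with at most 92.6 CPM in sgTrp53+MYC tumors and at least 117 CPM in livers, while the last did. Without Aldafermin+MYC replicate 4, the mean of that group was 0.0495 CPM and the last neighbours changed places.

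Cyp8b1 (chr9:121743422-121745371, minus strand) encodes the sterol hydroxylase needed to make cholic acid. It was at 314, 520, 112, 196 and 336 CPM in livers (296 ± 155, SD, n = 5) and at 89.6, 28.6, 54.7, 5.31 and 13.8 CPM in sgTrp53+MYC tumors (38.4 ± 34.2, SD, n = 5). FGF19+MYC tumors had 2.34, 10.7, 5.21, 5.31 and 11.0 CPM (6.91 ± 3.79, SD, n = 5). Aldafermin+MYC tumors had 0.267, 5.06, 1.79, 44.2 and 2.08 CPM (10.7 ± 18.8, SD, n = 5). As for Cyp7a1, replicate 4 was the highest of the Aldafermin+MYC tumors and replicate 4 the lowest of the sgTrp53+MYC tumors. Log2 fold changes against livers were -4.80 (SE 1.06) with Aldafermin, -5.41 (SE 1.09) with FGF19 and -2.94 (SE 0.96) with the Trp53 guide (adjusted p = 0.000481, 0.000208 and 0.0107, edgeR's quasi-likelihood test).

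RefSeq's promoter sequences (GRCm38.p6) cover 4 of the 9 genes: Cyp8b1, Hsd3b7, Cyp27a1 and Akr1d1. The 250 bases before the start are shown for Cyp8b1, which was lower with Aldafermin and FGF19 than in sgTrp53+MYC tumors, and for Hsd3b7, which was higher, as set out further on. Capitals mark the TATA box letters TATAAA, whose first base lies 31 bases before the start of Cyp8b1 (chr9:121916306-121916555, minus strand). The Hsd3b7 sequence is chr7:127800359-127800608, plus strand.
Cyp8b1: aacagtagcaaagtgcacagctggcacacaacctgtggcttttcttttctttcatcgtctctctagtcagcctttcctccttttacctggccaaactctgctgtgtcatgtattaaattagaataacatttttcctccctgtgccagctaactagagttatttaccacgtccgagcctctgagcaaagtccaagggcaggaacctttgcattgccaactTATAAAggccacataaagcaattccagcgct
Hsd3b7: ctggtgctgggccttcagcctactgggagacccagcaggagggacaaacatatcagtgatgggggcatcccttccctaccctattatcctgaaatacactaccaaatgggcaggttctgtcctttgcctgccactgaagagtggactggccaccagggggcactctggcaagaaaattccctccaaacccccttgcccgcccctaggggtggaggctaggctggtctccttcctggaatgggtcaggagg
On either strand of the windows from 250 bases before to 50 after the start, TATAAA was found in 1 of these 4 promoters and in 13.6% of 32851 promoters. The E-box CACGTG (7.15% of promoters), the NR5A2-type site CAAGGTCA (1.56%) and the HNF4A-type direct repeat (0.0396%) were found in none of the 4. Such matches describe letters only. Sites with any other letters were not searched for. At shares of 7.15% of promoters and below, finding none in 4 promoters says little about them.

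Along the alternative route, Cyp27a1 (chr1:74752314-74777056, plus strand), the mitochondrial sterol hydroxylase that also opens the shortening of the side chain in the classic route, had a narrow range in livers, from 658 to 875 CPM (762 ± 79.5, SD, n = 5). Its levels in tumors were alike across groups: 27.1 ± 22.8 CPM with Aldafermin, 29.2 ± 18.9 with FGF19 and 24.3 ± 10.5 with the Trp53 guide (SD, n = 5 each). Most tumors lay between 10.2 and 23.8 CPM, with 3 libraries above, namely Aldafermin+MYC replicate 4 (67.0 CPM), FGF19+MYC replicate 5 (62.9 CPM) and sgTrp53+MYC replicate 1 (42.5 CPM). The log2 fold changes against livers were -4.81 (SE 0.50), -4.71 (SE 0.50) and -4.97 (SE 0.50) (adjusted p = 6.43e-08, 8.13e-08 and 4.32e-08, edgeR's quasi-likelihood test). Some of its exon sequence overlaps Prkag3 on the other strand, which had at most 1.63 CPM in any library.

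Cyp7b1 (chr3:18117411-18297740, minus strand), the oxysterol hydroxylase of the alternative route, was the least abundant of the 9 per kilobase of exons in livers, at 23.7, 35.4, 20.9, 16.5 and 30.6 CPM (25.4 ± 7.55, SD, n = 5). Aldafermin+MYC tumors had 0.0243, 0.149, 0.107, 4.12 and 0.309 CPM. FGF19+MYC tumors had 0.167, 0.510, 0.359, 0.734 and 2.95 CPM, and sgTrp53+MYC tumors 7.46, 0.574, 1.44, 0.381 and 0.338 CPM. In each group a single tumor (replicate 4, replicate 5 and replicate 1, respectively) was several times above its neighbours, and the 3 groups overlapped. Cyp7b1 was lower than in livers by -4.81 (SE 1.17, adjusted p = 0.00118), -4.72 (SE 1.16, adjusted p = 0.00137) and -3.64 (SE 1.09, adjusted p = 0.00588) on the log2 scale in edgeR's quasi-likelihood test.

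Hsd3b7 (chr7:127399597-127402989, plus strand) encodes the dehydrogenase that acts on the sterol ring right after the hydroxylases of both routes. Livers had 833, 751, 495, 842 and 702 CPM (725 ± 141, SD, n = 5). Levels were 23.5, 73.0, 45.9, 71.0 and 33.8 CPM with Aldafermin (49.4 ± 22.1, SD, n = 5) and 62.5, 47.7, 73.6, 52.8 and 99.3 CPM with FGF19 (67.2 ± 20.5, SD, n = 5). In sgTrp53+MYC tumors they were 52.6, 20.3, 29.2, 15.6 and 8.55 CPM (25.2 ± 17.0, SD, n = 5), so that 4 of 5 were below 9 of the 10 tumors with Aldafermin or FGF19, Aldafermin+MYC replicate 1 being the exception. Here the fall against livers was largest in sgTrp53+MYC tumors, by 4.84 on the log2 scale (SE 0.45, adjusted p = 1.23e-08), against 3.87 (SE 0.43, adjusted p = 1.53e-07) with Aldafermin and 3.43 (SE 0.42, adjusted p = 5.98e-07) with FGF19, in edgeR's quasi-likelihood test.

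Akr1d1 (chr6:37506822-37545751, plus strand), the reductase that sets the bent ring shape of bile acids, fell least after Amacr by estimate in each tumor group. It had 374 ± 80.1 CPM in livers, 46.9 ± 38.3 with Aldafermin, 48.8 ± 24.7 with FGF19 and 84.5 ± 55.9 with the Trp53 guide (SD, n = 5 each). The tumor means were 12.5%, 13.05% and 22.6% of the liver mean. The single tumors ranged from 16.8 CPM in Aldafermin+MYC replicate 3 to 178 CPM in sgTrp53+MYC replicate 1, and livers from 289.5 to 500.5 CPM. Akr1d1 fell by 3.00, 2.94 and 2.15 on the log2 scale (SE 0.51, 0.50 and 0.49; adjusted p = 3.2e-05, 3.89e-05 and 0.000658, edgeR's quasi-likelihood test).

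Amacr (chr15:10981827-10996712, plus strand), a peroxisomal and mitochondrial racemase that prepares the side chain for shortening and also serves branched fatty acids, changed least. Livers had 199 to 255 CPM, Aldafermin+MYC tumors 71.3 to 141, FGF19+MYC tumors 84.0 to 127 and sgTrp53+MYC tumors 99.6 to 149.5 CPM. It fell by 1.17, 1.29 and 0.88 on the log2 scale (SE 0.17 each; adjusted p = 6.35e-06, 2.09e-06 and 0.000141, edgeR's quasi-likelihood test). Scaled by library size alone, which moves the median over all genes to 0.97, 0.91 and 0.95, the fall of Amacr in sgTrp53+MYC tumors was near 0 (adjusted p = 0.999, edgeR's quasi-likelihood test). The exons of Amacr overlap Gm34315 on the other strand, which had at most 1.40 CPM.

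The last steps join the bile acid to coenzyme A and then, in mice, mainly to taurine. Slc27a5 (chr7:12722273-12732137, minus strand), the bile acid coenzyme A ligase, was the most abundant per kilobase of the 9 in livers, with 1585 to 2225 CPM (1883 ± 316, SD, n = 5). It was at 9.69, 8.24, 9.05, 112 and 14.3 CPM with Aldafermin, at 8.76, 42.0, 15.6, 18.3 and 195 CPM with FGF19 and at 122, 48.6, 56.6, 10.6 and 37.5 CPM with the Trp53 guide. The same 3 libraries as for Cyp7b1 were the highest of their groups. Slc27a5 fell by 5.95, 5.07 and 5.09 on the log2 scale (SE 1.02, 0.98 and 0.98; adjusted p = 3.79e-05, 0.000135 and 0.000126, edgeR's quasi-likelihood test).

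Baat (chr4:49489289-49506563, minus strand) encodes the transferase that adds taurine. Livers had 276 ± 28.2 CPM (SD, n = 5; range 237.6 to 307). Aldafermin+MYC tumors had 3.21, 3.67, 3.31, 24.04 and 4.29 CPM, FGF19+MYC tumors 4.80, 11.3, 6.19, 7.13 and 27.9 CPM, and sgTrp53+MYC tumors 68.6, 20.8, 37.5, 7.97 and 28.2 CPM. Without Aldafermin+MYC replicate 4 and FGF19+MYC replicate 5, the tumors with Aldafermin or FGF19 stayed at or below 11.3 CPM, while 4 of 5 sgTrp53+MYC tumors were above 20 CPM. Baat fell by 5.18, 4.59 and 3.08 on the log2 scale (SE 0.71, 0.69 and 0.64; adjusted p = 2.64e-06, 8.22e-06 and 0.000276, edgeR's quasi-likelihood test). The exons of Baat overlap Gm32894 on the other strand by a short stretch, and Gm32894 had at most 10.04 CPM.

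**Figure D2:**
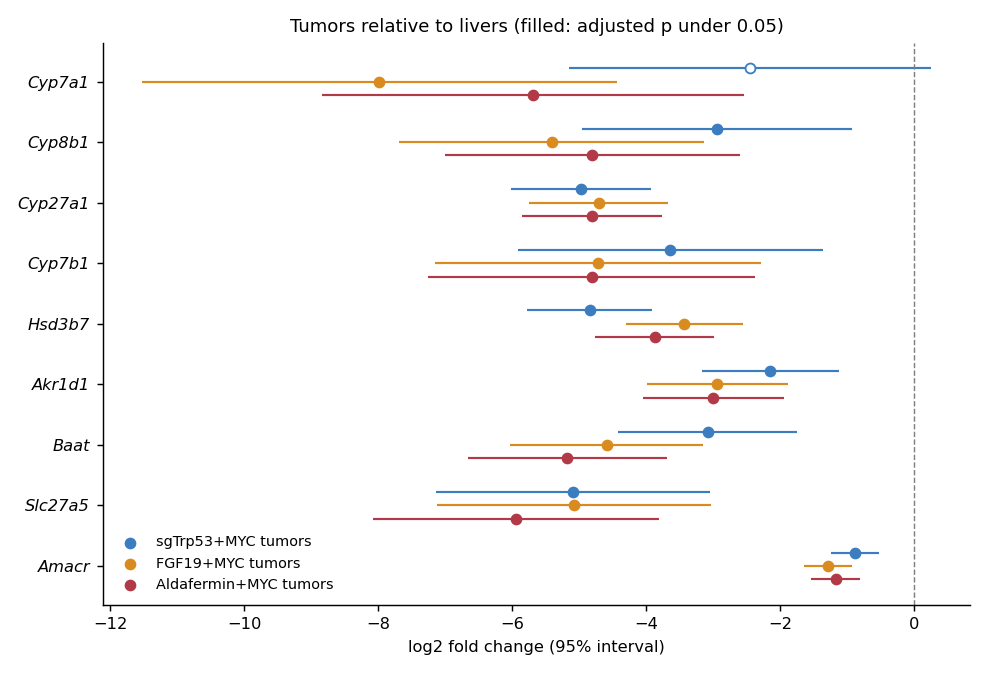
Log2 fold change of each gene in the 3 tumor groups relative to livers, with 95% intervals of edgeR's quasi-likelihood model; filled points passed an adjusted p of 0.05. All estimates are below 0, from -7.98 for Cyp7a1 with FGF19 to -0.88 for Amacr with the Trp53 guide, and the interval of Cyp7a1 in sgTrp53+MYC tumors reaches 0.25.

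Per kilobase of exons, which allows genes to be compared roughly, the order in livers was Slc27a5 (661 CPM per kilobase), Cyp27a1 (229), Hsd3b7 (222), Cyp8b1 (152), Baat (126.5), Akr1d1 (81.4), Cyp7a1 (70.2), Amacr (36.8) and Cyp7b1 (2.16). The length used joins all exons annotated in GENCODE (11786 bases for Cyp7b1), while reads were counted on RefSeq genes. The transcripts made in liver may be shorter, so the order is approximate. The levels of Cyp27a1 and Hsd3b7 differed by less than their SD of 23.9 and 43.2, as did those of Akr1d1 and Cyp7a1. In tumors Amacr and Hsd3b7 came near the top, and part of the order rested on single libraries. With Aldafermin, Amacr (16.3 CPM per kilobase) and Hsd3b7 (15.2) came first, also without replicate 4 (16.5 and 13.5). With FGF19, Hsd3b7 (20.6) was followed by Slc27a5 (19.6 ± 27.6, SD), whose place rested on replicate 5, without which it was at 7.43, below Amacr (15.3) and Akr1d1 (10.9). With the Trp53 guide, Amacr (19.96) was followed by Cyp8b1 (19.7 ± 17.6, SD) and Slc27a5 (19.4 ± 14.53, SD), levels that differed by less than their SD, and without replicate 1 Amacr led at 19.1 and Cyp8b1 was at 13.1. Cyp7a1 was next to last of the 9 with Aldafermin (1.39) and with FGF19 (0.271). Without Aldafermin+MYC replicate 4 it was at 0.0119, beside 0.0125 for Cyp7b1, and without FGF19+MYC replicate 5 at 0.141. In sgTrp53+MYC tumors Cyp7a1 was in the sixth place (12.9), above Hsd3b7 (7.73) and Cyp27a1 (7.31), and without replicate 1 at 10.5 against 5.64 and 5.94.

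Within groups, the 9 genes tended to be high in the same libraries. Of the 5 sgTrp53+MYC tumors, replicate 1 was the highest for 9 of 9 genes and replicate 4 the lowest for 5. FGF19+MYC replicate 5 was the highest of its group for 7 genes and Aldafermin+MYC replicate 4 for 6. Over the 9 genes, the median share of the liver mean was 29.4% in sgTrp53+MYC replicate 1 and 2.15% to 12.5% in the other 4. It was 9.80% in Aldafermin+MYC replicate 4 and 1.16% to 1.71% in the other 4, and 10.4% in FGF19+MYC replicate 5 and 1.74% to 3.64% in the other 4. These 3 libraries also had the highest summed hepatocyte and pericentral markers of their groups, with 14070 and 1064 CPM in sgTrp53+MYC replicate 1, and the part of these markers in the levels was not tested.

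**Figure D3:**
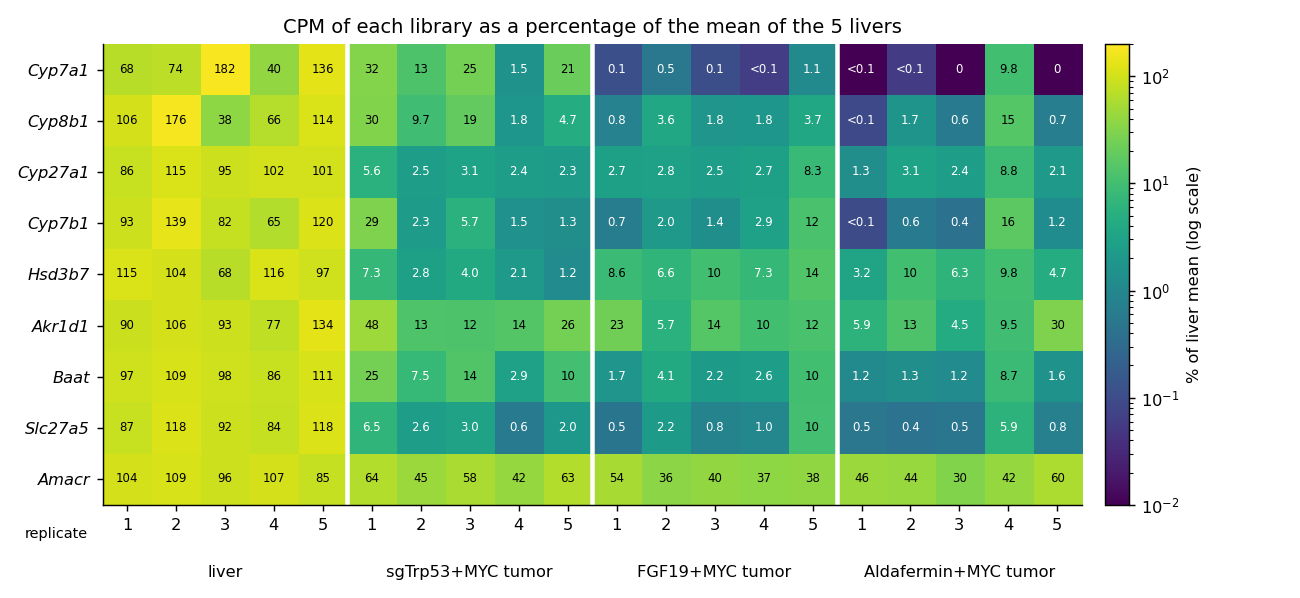
CPM of each gene (rows) in each library (columns, replicates 1 to 5 by group) as a percentage of the mean of the 5 livers, with a log colour scale. Aldafermin+MYC replicate 4 and FGF19+MYC replicate 5 hold higher percentages than the rest of their groups for most genes, Amacr stays between 30.4% and 63.7% in all tumors, and Cyp7a1 is at or under 1.13% in 9 of the 10 tumors with Aldafermin or FGF19.

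Without Aldafermin+MYC replicate 4, the other 4 tumors had 0 to 0.174 CPM of Cyp7a1, and the fold decrease against livers (not its log2) grew by over 1.5-fold for 6 genes. Their log2 fold changes were -12.39 for Cyp7a1, -7.00 for Cyp8b1, -5.47 for Cyp27a1, -7.42 for Cyp7b1, -6.25 for Baat and -7.51 for Slc27a5. The value for Cyp7a1 rests on very few reads, namely 1, 7, 0 and 0 in the 4 libraries. Without FGF19+MYC replicate 5, the values were -8.93 for Cyp7a1, -5.78 for Cyp7b1, -5.23 for Baat and -6.47 for Slc27a5. Without sgTrp53+MYC replicate 1, Cyp7b1 was at -5.20 against livers. All of these passed the threshold in edgeR's quasi-likelihood test.

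Between Aldafermin+MYC and FGF19+MYC tumors, none of the 9 genes passed (0 of 9 in edgeR's quasi-likelihood test, with 0% of all genes tested called). None of the 9 had an unadjusted p under 0.05, and none passed in DESeq2's Wald test or edgeR's likelihood ratio test, which called 96 and 59 of the 14333 genes. Across all genes, 1048 had an unadjusted p under 0.05. Hormone and analog were both delivered as plasmids, and the counts do not give the amount of either protein that reached the tumors. With Aldafermin relative to FGF19, the log2 difference was 2.30 for Cyp7a1 (95% interval -0.61 to 5.2, adjusted p = 0.807), 0.61 for Cyp8b1 (-1.32 to 2.53, adjusted p = 0.979) and -0.87 for Slc27a5 (-2.61 to 0.87, adjusted p = 0.94). Intervals were narrower for Hsd3b7 (-1.24 to 0.36), Cyp27a1 (-0.997 to 0.79) and Akr1d1 (-1.04 to 0.93), and narrowest for Amacr (-0.24 to 0.47). For Cyp7b1 the interval was -2.33 to 2.13 and for Baat -1.86 to 0.68.

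The direction for the 2 hydroxylases of the classic route rested on 1 library. Without Aldafermin+MYC replicate 4, Cyp7a1 was lower with Aldafermin than with FGF19 by 4.41 on the log2 scale (adjusted p = 0.141), and Cyp8b1 by 1.59 (adjusted p = 0.505), in edgeR's quasi-likelihood test. In those 4 tumors Cyp7a1 reached at most 0.174 CPM, just under the lowest FGF19+MYC tumor (0.176 CPM), and 3 of the 4 were at or below the level of 3 reads. Cyp8b1 overlapped between these 4 tumors (0.267 to 5.06 CPM) and the FGF19+MYC tumors (2.34 to 11.0 CPM).

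Tumors with either agent differed from sgTrp53+MYC tumors in 4 of the 9 genes. With both groups averaged on the log2 scale, Cyp7a1, Cyp8b1 and Baat were lower and Hsd3b7 was higher in edgeR's quasi-likelihood test, in a comparison where 12.1% of all genes tested were lower and 11.6% higher (23.7% in all). Cyp7a1 was 20.9-fold lower (log2 fold change -4.39, SE 1.09, adjusted p = 0.00715), and 28 of 14333 genes had a more negative estimate. Baat was 3.48-fold lower (-1.80, SE 0.50, adjusted p = 0.0135) and Cyp8b1 4.48-fold lower (-2.16, SE 0.75, adjusted p = 0.0437). Hsd3b7 was 2.28-fold higher (1.19, SE 0.35, adjusted p = 0.0186). In each of the 4 genes the groups overlapped. For Cyp7a1, 9 of the 10 tumors with Aldafermin or FGF19 were below the lowest sgTrp53+MYC tumor (4.53 CPM), and the exception was Aldafermin+MYC replicate 4 (28.8 CPM).

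The other 5 genes did not pass. Log2 differences were 0.21 for Cyp27a1 (95% interval -0.56 to 0.99, adjusted p = 0.722), -0.41 for Slc27a5 (-1.89 to 1.06, adjusted p = 0.713), -1.12 for Cyp7b1 (-2.92 to 0.67, adjusted p = 0.369), -0.82 for Akr1d1 (-1.65 to 0.01, adjusted p = 0.142) and -0.35 for Amacr (-0.65 to -0.04, adjusted p = 0.0914), in edgeR's quasi-likelihood test. The median over the 9 genes was -0.82, beside -0.02 over all genes. Over 24 other settings of test, scaling, filter and libraries, Cyp7a1 passed in 24, Hsd3b7 and Baat in 23 each and Cyp8b1 in 13 (adjusted p from 0.000871 to 0.144, including DESeq2's Wald test and edgeR's likelihood ratio test). Cyp8b1 missed the threshold when any of 9 of the 15 tumor libraries was left out.

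**Figure D4:**
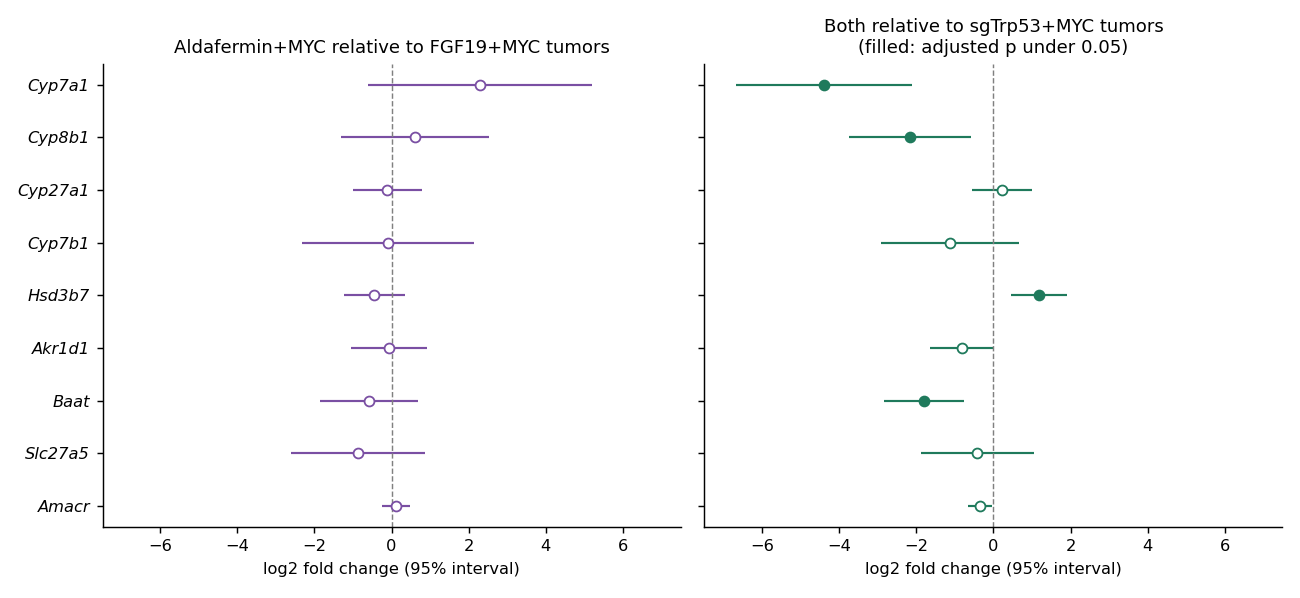
Log2 fold changes with 95% intervals between tumor groups: Aldafermin+MYC relative to FGF19+MYC (left) and the average of both relative to sgTrp53+MYC (right); filled points passed an adjusted p of 0.05 in edgeR's quasi-likelihood test. All 9 intervals include 0 on the left, while on the right Cyp7a1 (-4.39), Cyp8b1 (-2.16) and Baat (-1.80) are below 0 and Hsd3b7 (1.19) is above.

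These differences depended on single libraries to different degrees. Without Aldafermin+MYC replicate 4, the difference from sgTrp53+MYC tumors was -7.74 for Cyp7a1 and -3.26 for Cyp8b1, and Cyp7b1 also passed (-2.43, adjusted p = 0.0217). That was the only pass of Cyp7b1 in 15 fits with a single tumor left out. The library left out had the most Cyp7b1 of its group (4.12 CPM). With only the compared groups in the model, Cyp7b1 did not pass the filter on low counts. Without this library and FGF19+MYC replicate 5 together, a choice made after the data were seen, Cyp7a1 was at -8.21, Cyp8b1 at -3.37, Baat at -2.65, Cyp7b1 at -2.96 (adjusted p = 0.00542) and Slc27a5 at -1.89 (adjusted p = 0.00369). Without sgTrp53+MYC replicate 1, Baat (-1.34, adjusted p = 0.0588) and Cyp8b1 (-1.58, adjusted p = 0.144) no longer passed, and 2 genes remained, Cyp7a1 and Hsd3b7. Hsd3b7 missed the threshold without sgTrp53+MYC replicate 4 (1.06, adjusted p = 0.0504). With Aldafermin+MYC replicate 5 left out, Akr1d1 (-1.18, adjusted p = 0.0185) and Amacr (-0.46, adjusted p = 0.0233) passed. All adjusted p are from edgeR's quasi-likelihood test.

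Beside these differences stand those of marker genes, in a comparison where 11.6% of all genes tested were higher and 12.1% lower. Of the 10 hepatocyte markers, 2 were higher (Alb and Apoa1) and 1 was lower (Cps1) in tumors with Aldafermin or FGF19 than in sgTrp53+MYC tumors. The median log2 fold change was 0.50, and Alb was at 2972 to 17170 against 731 to 5425 CPM. Of 6 pericentral markers none passed (median 0.62), and of 6 periportal markers 1 was higher. Cholangiocyte markers were lower for 4 of 5 (median -3.00). Their summed level was 1.81 to 87.6 CPM, against 41.2, 779, 28.4, 3.45 and 7.83 CPM in sgTrp53+MYC replicates 1 to 5. Only sgTrp53+MYC replicate 2 lay above the range of the tumors with Aldafermin or FGF19, and the marker calls were not repeated without it. Macrophage markers were higher for 3 of 5, and no endothelial, stellate or tested lymphocyte marker passed. The part of these cells in the differences was not tested.

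Of 10 regulators of bile acid synthesis, 8 were lower than in livers with Aldafermin, 8 with FGF19 and 9 with the Trp53 guide, and none was higher (5, 5 and 4 called, with 1 higher with Aldafermin, when scaled by library size alone). Of all genes, 31.9%, 32.9% and 33% were lower in these comparisons. Nr1h4, the nuclear receptor FXR that senses bile acids, was at 31.9 ± 9.95 CPM with Aldafermin, 34.3 ± 5.18 with FGF19, 61.9 ± 10.01 with the Trp53 guide and 164 ± 25.7 in livers (SD, n = 5 each). It was lower with Aldafermin and FGF19 than in sgTrp53+MYC tumors by 0.90 on the log2 scale (that is, -0.90, SE 0.16, adjusted p = 0.000616), with each of the 10 tumors below each of the 5, a separation that 2.42% of all genes showed in that direction. Nr5a2, known as LRH-1 and an activator of Cyp7a1 and Cyp8b1, was also lower (-0.50, SE 0.13, adjusted p = 0.00914). Fgfr4, the receptor of FGF19, was higher (0.44, SE 0.14, adjusted p = 0.0249), a call that held in 17 of 24 other settings. Its co-receptor Klb did not pass (0.23, adjusted p = 0.398), with 66.3 to 136 CPM against 50.7 to 95.1 CPM. In this comparison with sgTrp53+MYC tumors, 2 of the 10 regulators were lower, 1 was higher and 7 did not pass, among them Hnf4a (0.18, adjusted p = 0.476). Of all genes tested, 12.1% were lower and 11.6% higher there. Whether any regulator has a part in the levels of the synthesis genes was not tested. Adjusted p are from edgeR's quasi-likelihood test.

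Nr0b2, the FXR target SHP that represses Cyp7a1, was at 30.7, 18.2, 19.7, 25.7 and 9.84 CPM in livers. In sgTrp53+MYC tumors it was at 2.31, 1.79, 1.64, 27.0 and 0.783 CPM, so that replicate 4 held more than 10 times as much as any other. Replicate 4 was the lowest of its group for 5 of the 9 synthesis genes, Cyp7a1 among them. Replicate 5, with the least Nr0b2, was the lowest for the 3 genes Cyp27a1, Cyp7b1 and Hsd3b7. With FGF19 it was at 82.2, 2.59, 18.4, 31.7 and 14.7 CPM and with Aldafermin at 33.9, 18.8, 14.6, 7.19 and 45.5 CPM. The lowest of the Aldafermin+MYC tumors was replicate 4, the one with the most Cyp7a1. FGF19+MYC replicate 2, with the least Nr0b2 of the tumors with either agent, had 1.53 CPM of Cyp7a1, and livers had 117 to 534 CPM of Cyp7a1 at Nr0b2 levels within the range of these tumors. Relative to sgTrp53+MYC tumors Nr0b2 was at 2.00 on the log2 scale (SE 0.81, adjusted p = 0.0817), which did not pass, and without sgTrp53+MYC replicate 4 at 4.03 (adjusted p = 0.000887, edgeR's quasi-likelihood test). That library had the most Nr0b2 of its group, and no other of the 15 fits with a single tumor left out passed. Over the 24 other settings, Nr0b2 passed in 4. Whether Nr0b2 has a part in the levels of Cyp7a1 was not tested.

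**Figure D5:**
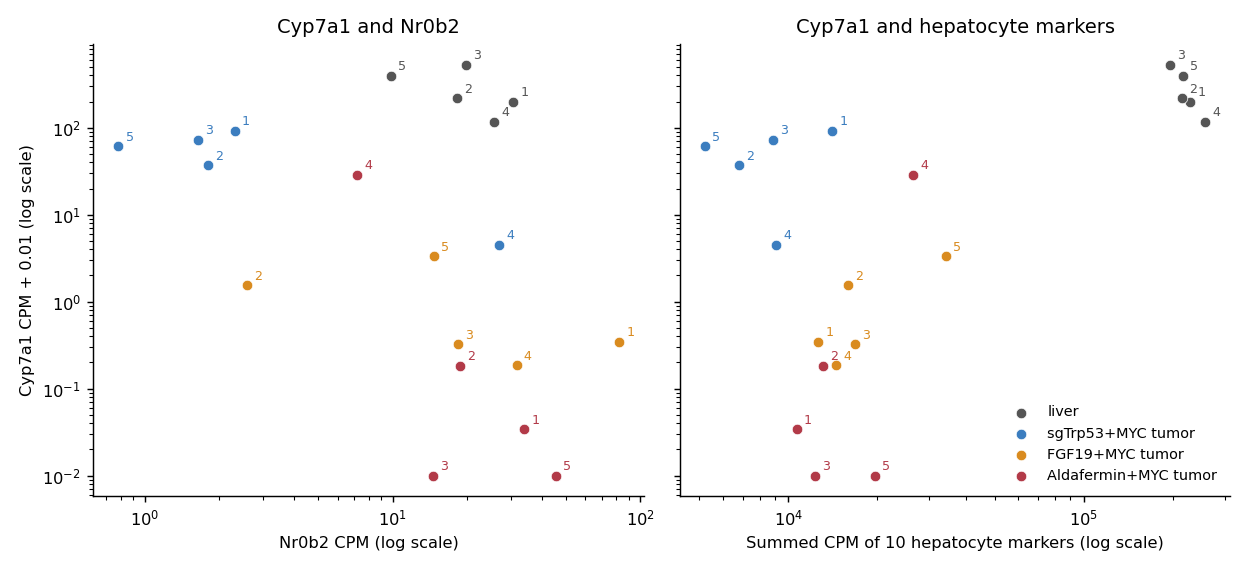
Cyp7a1 CPM (0.01 added) against Nr0b2 CPM (left) and against the summed CPM of 10 hepatocyte markers (right) in 20 libraries, on log axes, with replicate numbers. On the left, sgTrp53+MYC replicate 4 (27.0 CPM of Nr0b2, 4.53 CPM of Cyp7a1) lies apart from its group, and on the right 4 sgTrp53+MYC tumors have more Cyp7a1 than any tumor with Aldafermin or FGF19 at lower summed hepatocyte markers than most of them. Alb has the highest mean of the markers summed. Relative to sgTrp53+MYC tumors, Alb and Apoa1 were higher with Aldafermin or FGF19, Cps1 was lower and the other 7 did not pass.

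Of 16 further genes of bile acid synthesis, side chain shortening and hydroxylation, 12 were lower and 1 was higher than in livers with Aldafermin, 12 and 1 with FGF19, and 13 and 1 with the Trp53 guide, with medians of -2.28, -2.30 and -2.19 on the log2 scale. Of all genes, 70.3%, 69.7% and 69.9% passed in these comparisons and 31.9%, 32.9% and 33% were lower. Cyp2c70, which makes the muricholic acids typical of mice, had 705 ± 182 CPM in livers and 47.6 ± 29.8, 67.2 ± 37.4 and 67.3 ± 24.6 CPM in the tumor groups (SD, n = 5 each). The gene that was higher was Ch25h, which makes an oxysterol in immune cells, from 0 to 0.183 CPM in livers to 0.219 to 5.44, 0.223 to 2.26 and 0.313 to 1.11 CPM in tumors. Its log2 fold change with Aldafermin moved from 4.57 to 3.19 without Aldafermin+MYC replicate 3, and against livers without replicate 2, the liver with the most Ch25h, it was 5.78, 5.47 and 4.61 in the 3 tumor groups. Cyp39a1, an oxysterol hydroxylase, did not pass against livers in any group by TMM scaling in the model of 4 groups (-0.15, 0.12 and 0.29; adjusted p = 0.672, 0.731 and 0.394, edgeR's quasi-likelihood test), with 33.6 to 138 CPM in tumors and 66.4 to 86.5 CPM in livers. Scaled by library size alone it was called higher in all 3 groups (0.66, 0.93 and 1.16, adjusted p = 0.0267, 0.00354 and 0.000551, edgeR's quasi-likelihood test), and with only the compared groups in sgTrp53+MYC tumors (0.43, adjusted p = 0.0355). Between the tumor groups, 0 of the 16 passed in edgeR's quasi-likelihood test in either comparison, nor in DESeq2's Wald test or edgeR's likelihood ratio test, and 1 (Acnat2, Aldafermin against FGF19) and 0 had an unadjusted p under 0.05.

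The genes most like each member were found by the root mean square difference of centred log2 CPM over the 20 libraries. Amacr had the closest neighbours, Galm (0.158), Smim10l1 (0.165) and Acadm (0.183). Those of Akr1d1 were Cfhr2 (0.373), Gpt and Arg1 (0.426), and those of Cyp27a1 were Rida (0.393), 1810008I18Rik (0.401) and Ugt2b5 (0.403). Cyp7a1 had no near neighbour, the closest being Upp2 (2.03), Thrsp (2.09) and Car3 (2.17). The nearest genes of Cyp8b1, Cyp7b1, Hsd3b7, Baat and Slc27a5 were Apon (0.752), Ugt2a3 (0.618), Aadat (0.507), Ranbp3l (0.489) and Gm8941 (0.489). Among the 9 themselves, Cyp7b1 and Slc27a5 (0.772) and Cyp27a1 and Hsd3b7 (0.792) were the closest pairs, and the largest difference was between Cyp7a1 and Amacr (4.17). These values describe 20 libraries that fall into 4 groups and share the difference between tumors and livers.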

How the data were processed

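RNA of 15 tumors and 5 livers was sequenced as stranded mRNA libraries (TruSeq). The authors converted reads with bcl2fastq 2.20.0.422, aligned them to the mouse genome mm39 with HISAT2 and counted reads per RefSeq gene with htseq-count (its strand setting is not given in the sources used here). The deposited values are raw counts; 5 summary lines (33.7% to 56.2% of a library) were removed and 0 sample columns were left out. Libraries differed by more than sampling noise (chi-square over degrees of freedom at least 15.0 in 40 pairs).

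Counts were normalized by TMM and tested in R 4.3.3 with edgeR 4.0.16 (quasi-likelihood, 1 model of 4 groups, a minimum of 1 CPM in 5 or more libraries, Benjamini-Hochberg adjustment). Folds and CPM are on this scale. The alternatives were DESeq2 1.42.0, edgeR's likelihood ratio test, other scalings, no filter, only the compared groups, a replicate block and each library left out; leaving out 2 libraries together and offsets for GC content and exon length were added later. The members and gene lists were chosen with earlier results of these data known. Named genes are the members, the genes of the synthesis, regulator and marker lists, and the 3 nearest genes of each member by likeness. Coordinates are GENCODE M39 (GRCm39).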

Additional observations from a re-analysis of the deposited data

Results flagged for a closer look

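In 13 of the 36 combinations of gene and group, the gap of 1 library to its nearest neighbour took up more than 0.71 of the group's whole range. The 0.71 is Dixon's critical value for 5 samples, which chance passes in about 1 in 20 groups of normally distributed values. CPM need not be so distributed, and in all 13 the far library was the highest of its group. The 36 combinations are not independent, since 12 of the 13 come from 3 libraries that stand high for several genes. Aldafermin+MYC replicate 4 was the far library for Cyp7a1 (28.8 CPM, next 0.174), Cyp8b1 (44.2, next 5.06), Cyp27a1 (67.0, next 23.8), Cyp7b1 (4.12, next 0.309), Baat (24.04, next 4.29) and Slc27a5 (112, next 14.3). FGF19+MYC replicate 5 was for Cyp27a1 (62.9 CPM, next 21.7), Cyp7b1 (2.95, next 0.734), Baat (27.9, next 11.3) and Slc27a5 (195, next 42.0). For sgTrp53+MYC replicate 1 this held for Cyp27a1 (42.5 CPM, next 23.7) and Cyp7b1 (7.46, next 1.44), and for FGF19+MYC replicate 1 for Amacr (127 CPM, next 94.8).

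The change against livers differed between the tumors with Aldafermin or FGF19 and the sgTrp53+MYC tumors for Cyp7a1 (by -4.39), Cyp8b1 (by -2.16), Baat (by -1.80) and Hsd3b7 (by 1.19) on the log2 scale. The livers cancel in this difference.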

How the results depend on the processing

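Of 888 repeated tests of the 9 genes, 839 kept direction and call, 15 lost and 8 gained the call, and 26 turned direction, of which none had passed before. The count of genes called stayed within 1.5 times under every setting except without sgTrp53+MYC replicate 1 (2 against sgTrp53+MYC tumors, in place of 4; over single libraries left out, 2 to 6). Scaled by library size alone, the genes called higher made up 78.2%, 77.4% and 77.9% of calls against livers (54.6%, 52.9% and 52.8% by TMM), regulators called were 5, 5 and 4 (in place of 8, 8 and 9), Klb turned to 0.56, 0.48 and 0.34, Cyp39a1 to 0.66 with Aldafermin (called higher in all 3 groups), and Cyp8b1 in sgTrp53+MYC tumors missed the threshold (adjusted p = 0.0504, edgeR's quasi-likelihood test). Cyp39a1 with Aldafermin against livers was 0.049 without a filter and 0.30 with the offsets. With single libraries left out, Cyp39a1 ranged from -0.41 to 0.029 with Aldafermin and -0.15 to 0.27 with FGF19, and Nr0b2 from -0.078 to 0.44 and -0.30 to 0.82, all without a call.

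Between Aldafermin+MYC and FGF19+MYC tumors, single libraries left out gave -4.41 to 3.24 for Cyp7a1, -1.59 to 0.93 for Cyp8b1, -0.76 to 0.39 for Cyp27a1, -2.71 to 0.97 for Cyp7b1, -0.71 to 0.26 for Akr1d1, -1.67 to 0.052 for Baat, -2.44 to 0.53 for Slc27a5 and -0.043 to 0.23 for Amacr. Without both libraries that stood apart, Cyp7a1 was at -3.46 and Cyp8b1 at -1.37. Relative to sgTrp53+MYC tumors, the ranges were -0.12 to 0.51 for Cyp27a1 (-0.36 without both), -2.43 to 0.43 for Cyp7b1 (-2.96 without both) and -1.20 to 0.11 for Slc27a5 (-1.89 without both). Of the 16 further synthesis genes, 0 to 1 were called in each of these comparisons with single libraries left out, and 3 relative to sgTrp53+MYC tumors without both. The cause was not tested.

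Replicate numbers belong to different mice (6 of 30 same-numbered pairs correlated over 0.1, range -0.33 to 0.33). With the replicate block, Cyp7a1 was at -8.06 with Aldafermin against livers and -5.81 relative to sgTrp53+MYC tumors, Cyp8b1 lost its call relative to sgTrp53+MYC tumors (-2.80, adjusted p = 0.0577), turned to -0.20 between Aldafermin and FGF19, and Nr0b2 passed (2.69, adjusted p = 0.0368); 9, 9, 8, 0 and 3 of the 9 genes passed in the 5 comparisons. With only the compared groups, Cyp7a1 and Cyp7b1 (Aldafermin against FGF19), Cyp7b1 (against sgTrp53+MYC) and Ch25h (against livers) did not pass the filter and gave no value. Depth limits Cyp7a1 in tumors with Aldafermin, where 2 libraries had no read.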
